A study of Rattus norvegicus with 2 samples.

Results

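The unfolded protein response was followed through 10 listed genes: the sensors Atf6 and Ern1, the transcription factors Atf4, Ddit3 and Xbp1, the chaperones Hspa5, Dnajb9, Canx and Calr, and the degradation factor Herpud1. They were chosen by name, and every gene spot whose name on the array, or an older symbol of it, was one of these genes was taken. This gave 11 probes for 9 of the 10 genes, out of 41012 gene probes under 35561 distinct names. Dnajb9 and Herpud1 had 2 probes each. Ern1 was matched through a RefSeq synonym. No probe name matched Xbp1, so its mRNA could not be read and only its promoter was searched.

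Rats transgenic for human islet amyloid polypeptide (IAPP), called HIP rats, were compared with nondiabetic wild-type rats. IAPP is co-secreted with insulin and can form amyloid, and in the HIP line the transgene is driven by an insulin promoter. The 4 extracts, 2 wild-type and 2 HIP, were hybridised in pairs on 2 two-colour arrays, with wild type in Cy3 and HIP in Cy5 on both, so n = 2 ratios throughout. The series title concerns inflamed islets, dividing duct cells and pancreatitis in type 2 diabetes. The labels give no strain, age, sex or tissue, describe the material only as lysed cells whose cDNA was amplified by PCR, and do not say whether the extracts are from different rats. A p-value here rests on the spread between 2 arrays, and that spread may be technical. Dyes were not swapped, so dye and genotype cannot be told apart. The arrays shared 1 slide and 1 scan, and fewer cells of a type cannot be told apart from less RNA per cell.

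The unfolded protein response is set off when unfolded proteins build up in the endoplasmic reticulum, and it slows translation while raising chaperones, folding enzymes and degradation factors. Its sensors are ATF6, which is cleaved to a transcription factor, IRE1 (Ern1), which splices Xbp1 mRNA, and PERK (Eif2ak3), which phosphorylates the initiation factor eIF2alpha and so favours translation of ATF4. Beta cells secrete large amounts of insulin and are known to depend on this system. Splicing, cleavage and phosphorylation are not measured by these probes, which report mRNA only.

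Known response elements of this pathway were searched on both strands in promoter windows from 250 bases before to 50 after each start site (RefSeq, GRCr8). The sequences below are shown because they match known elements of this pathway in listed genes whose mRNA was measured. Contact of ATF6 or XBP1 with these sites was not measured. The endoplasmic reticulum stress element, ERSE, was searched as CCAAT followed by any 9 bases and then CCACG, and 21 of 27457 promoters (0.0765%) held it. Of the 8 listed genes with a promoter entry, 4 held it, namely Hspa5, Canx, Calr and Xbp1. The related ERSE-II (ATTGG, any 1 base, CCACG) was in 15 promoters (0.0546%), among them that of Herpud1. Capitals mark the letters that matched, and each run is 5′ to 3′ on the strand of the match. Positions here and below span the whole run, with 5 flanking bases on each side. Distances to the start site are counted from the capitals. The Hspa5 element lay at chr3:38452968-38452996 on the strand of the gene (plus), 43 bases before its start site. That of Canx lay at chr10:35158064-35158092 on the strand of the gene (minus), 230 bases before the start. That of Calr lay at chr19:40213130-40213158, 232 bases before the start, on the minus strand, opposite to the gene. The Herpud1 element lay at chr19:10614816-10614836 on the strand of the gene (minus), 124 bases before the start.
Hspa5 ERSE: gttcaCCAATCGGAGGCCTCCACGacggg
Canx ERSE: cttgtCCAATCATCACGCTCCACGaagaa
Calr ERSE: ctgggCCAATCAGGGTCGACCACGcgttg
Herpud1 ERSE-II: cgctgATTGGGCCACGttggg
Both motifs contain the letters CCACG, and a match is a description of the sequence, not of binding.

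A further search used TGATGCAA, a C/EBP-ATF response element of the kind bound by ATF4 and its partners. It was in 204 promoters (0.743%), and Herpud1 was the 1 listed gene among them. That match lay at chr19:10614879-10614896, 184 bases before the start, on the plus strand, opposite to the gene.
Herpud1 C/EBP-ATF element: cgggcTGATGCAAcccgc
The unfolded protein response element TGACGTGG was in 175 promoters (0.637%) and in 0 of the 8 listed ones.

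Of the 11 probes, 8 were well above background in all 4 extracts, 1 in the 2 HIP extracts alone and 2 in none. The 9 probes (8 genes) well above background in at least 1 dye on both arrays were tested. All log2 ratios below are HIP over wild type, so a negative value is lower in HIP. With limma and Benjamini-Hochberg adjustment over all 33643 probes tested, 0 of the 9 passed an adjusted p of 0.05, as did 0 of all probes (0%). The smallest adjusted p of any probe was 0.942. At an unadjusted limma p under 0.05 there was 1 listed probe, that of Atf6, against 3.27% of all probes. In direction, 4 of the 9 probes were lower in HIP on both arrays (22.9% of all probes were), 0 were higher on both (26.9%) and 5 pointed in opposite directions (50.2%). The 4 with the same sign on both arrays compare with 49.8% of all probes. The median of the mean log2 ratio over the 9 probes was -0.33, beside 0.02 for all probes tested.

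The listed genes differed in the size of their ratios and in how far the arrays shared a direction. Atf6 and Canx were at least 2-fold lower in HIP on both arrays, a pattern shown by 2.44% of all probes. None of the listed probes was 2-fold higher on both, against 2.57% of all probes. Hspa5 and Herpud1 were at least 2-fold apart in opposite directions, shown by 5.43% of all probes. The other 5 probes were under 2-fold on both arrays. These counts were not tested. Where both HIP extracts are said below to lie under both wild-type extracts, levels are compared across arrays. The share of all probes with that order was not counted.

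**Figure D1:**
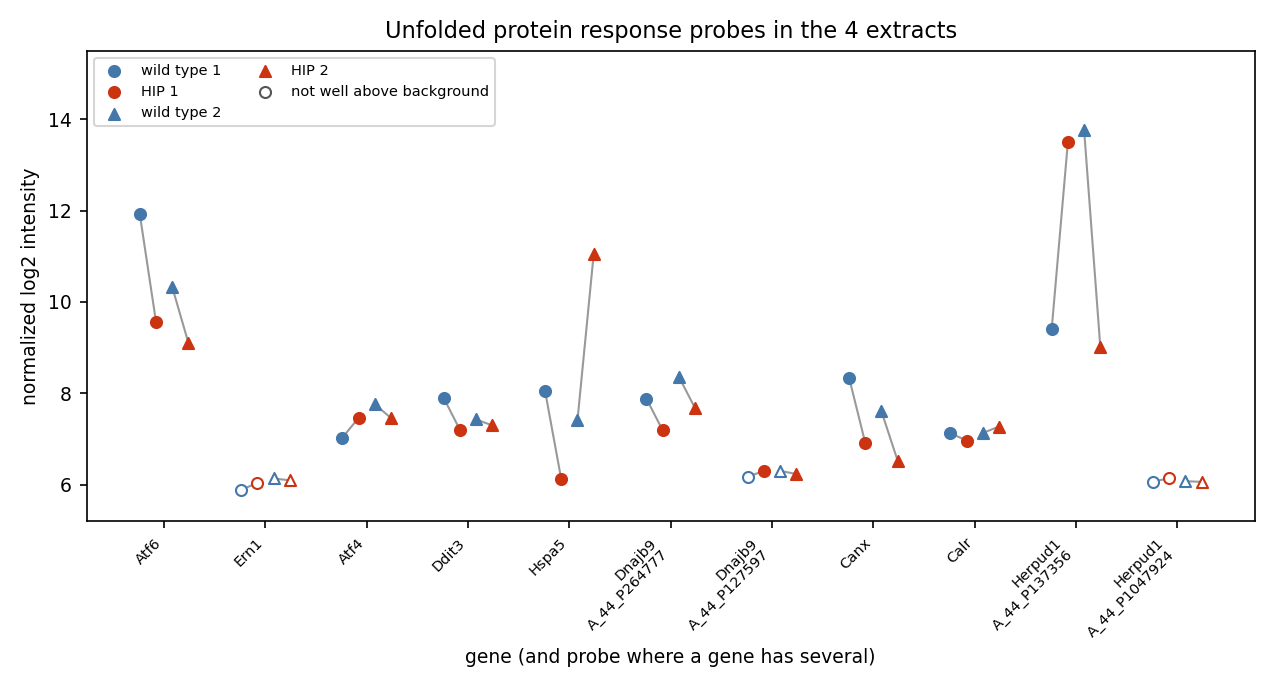
Normalized log2 level of each listed probe in the 4 extracts, with a line joining the wild-type and HIP extract that shared an array. Open symbols were not well above background. Atf6 and Canx are lower in HIP than in wild type on both arrays, while the Hspa5 and Herpud1 lines run in opposite directions. Levels of different probes cannot be compared.

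Atf6, the sensor that becomes a transcription factor, had normalized log2 levels of 11.93 in wild type 1, 9.57 in HIP 1, 10.33 in wild type 2 and 9.11 in HIP 2. Both HIP extracts were below both wild-type extracts. The log2 ratios were -2.35 on array 1 and -1.22 on array 2, or 5.11-fold and 2.34-fold lower in HIP. The mean log2 ratio was -1.79 ± 0.80 (SD, n = 2), with a standard error of 0.56, a limma p of 0.0471 and an adjusted p of 0.942. The difference between genotypes was thus larger than the spread of the ratios without passing the test over all probes. The Atf6 signal was also bright, at 92.4 times the local background in wild type 1 and 18.4 times in HIP 2, so its ratio did not rest on dim spots.

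Ern1, the sensor that splices Xbp1 mRNA, was not well above background in any extract. Its log2 levels lay between 5.89 and 6.14 and only a bound on its mRNA can be given. It was not tested.

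Atf4, the transcription factor whose translation PERK signalling favours, had log2 levels of 7.03 in wild type 1, 7.46 in HIP 1, 7.76 in wild type 2 and 7.46 in HIP 2. The HIP levels lay between those of the 2 wild-type extracts. Its log2 ratios were 0.43 and -0.31, and their mean was 0.06 ± 0.52 (SD, n = 2; limma adjusted p = 0.999). No difference beyond the spread was seen.

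Ddit3, which encodes the stress factor CHOP, is induced through ATF4 and is linked to cell death under prolonged stress. Its log2 levels were 7.90 and 7.20 in wild type 1 and HIP 1, and 7.43 and 7.30 in wild type 2 and HIP 2. Both HIP extracts were below both wild-type extracts, by small amounts on array 2. The log2 ratios of -0.70 and -0.13 gave a mean of -0.41 ± 0.40 (SD, n = 2; limma adjusted p = 0.947), about as large as their SD.

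Hspa5 encodes BiP, the main Hsp70 chaperone of the endoplasmic reticulum, which also holds the sensors inactive. Its log2 levels were 8.05 in wild type 1, 6.12 in HIP 1, 7.41 in wild type 2 and 11.05 in HIP 2. The lowest and the highest level were both in HIP extracts, and the 2 wild-type extracts lay between them. Hspa5 was 3.83-fold lower in HIP on array 1 and 12.4-fold higher on array 2. The mean log2 ratio of 0.85 ± 3.94 (SD, n = 2; limma adjusted p = 0.992) therefore describes neither array. The processed signals of the scanner software showed the same order, with log2 ratios of -3.32 and 5.11 and signals of 941 in wild type 1, 94.1 in HIP 1, 218 in wild type 2 and 7533 in HIP 2. The low HIP 1 spot was 1.74 times its local background and the high HIP 2 spot 76.6 times.

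Dnajb9 encodes ERdj4, a J-domain partner of BiP and a known target of spliced XBP1, and its 2 probes differed. The brighter one (A_44_P264777) had log2 levels of 7.88 and 7.19 in wild type 1 and HIP 1, and 8.37 and 7.68 in wild type 2 and HIP 2. HIP was lower than wild type on each array by nearly the same amount, although both extracts of array 2 were higher than their counterparts on array 1. The log2 ratios were -0.69 and -0.69, or 1.61-fold lower on both (mean -0.69 ± 0.0022, SD, n = 2), with a limma adjusted p of 0.942. With 2 values so close a small SD is itself uncertain, and limma draws it towards the spread of all probes (prior SD 0.68). The ratios lay further apart in some other processing, at -0.80 and -1.155 with the scanner's processed signals and -0.49 and -0.14 with median centring. Without normalization they were 0.14 and 0.81.

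The dimmer Dnajb9 probe (A_44_P127597) was well above background in HIP 1 and HIP 2 alone. Its log2 ratios were 0.13 and -0.07 (limma adjusted p = 1). It passed the filter through the HIP extracts alone, and as its wild-type signal is only a bound, these ratios show no direction. By the array's own positions it starts 685 bases downstream of the brighter probe.

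Canx encodes calnexin, the membrane-bound lectin chaperone that holds newly made glycoproteins until they fold. Its log2 levels were 8.35 in wild type 1, 6.92 in HIP 1, 7.60 in wild type 2 and 6.52 in HIP 2. Both HIP extracts were below both wild-type extracts. Canx was 2.69-fold lower in HIP on array 1 and 2.11-fold lower on array 2. With the scanner's processed signals the Canx log2 ratios were larger, at -1.91 and -2.41. The Canx spots were dim in HIP, at 3.50 times the local background in HIP 1 and 2.30 times in HIP 2. The size of the ratio varied with the processing, and the part of the dim spots in this was not tested. The mean log2 ratio was -1.25 ± 0.25 (SD, n = 2), with a standard error of 0.17, a limma p of 0.0585 and an adjusted p of 0.942.

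Calr encodes calreticulin, the soluble counterpart of calnexin in the same folding cycle. Its log2 levels were 7.13 and 6.97 in wild type 1 and HIP 1, and 7.13 and 7.27 in wild type 2 and HIP 2, and the wild-type levels lay between the HIP levels. The log2 ratios of -0.16 and 0.14 gave a mean of -0.01 ± 0.21 (SD, n = 2; limma adjusted p = 1). The calnexin and calreticulin genes, which both held an ERSE, thus had different ratios on both arrays, and that difference was not tested.

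Herpud1 encodes a membrane protein of the degradation machinery for misfolded proteins and is among the genes most readily induced by endoplasmic reticulum stress. Its brighter probe (A_44_P137356) had log2 levels of 9.41 in wild type 1, 13.51 in HIP 1, 13.76 in wild type 2 and 9.01 in HIP 2. It was high in 1 extract of each genotype and low in the other. Herpud1 was 17.1-fold higher in HIP on array 1 and 26.9-fold lower on array 2. These sizes lay at the 98.3rd and 98.7th percentiles of all probes tested on the respective array. The mean log2 ratio was -0.33 ± 6.26 (SD, n = 2; limma adjusted p = 0.999).

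Both Herpud1 and Hspa5 reversed between arrays, but not together. Herpud1 was higher in HIP on array 1, where Hspa5 was lower, and the reverse held on array 2. The processed Herpud1 signals were 2559 and 48005 in wild type 1 and HIP 1, and 64832 and 2052 in wild type 2 and HIP 2, none of them near background. Herpud1 was among the 0.377% of all probes at least 8-fold apart in opposite directions. The dimmer Herpud1 probe (A_44_P1047924), which starts 3310 bases further downstream by the array's own positions, was not well above background in any extract, with log2 levels between 6.06 and 6.14.

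**Figure D2:**
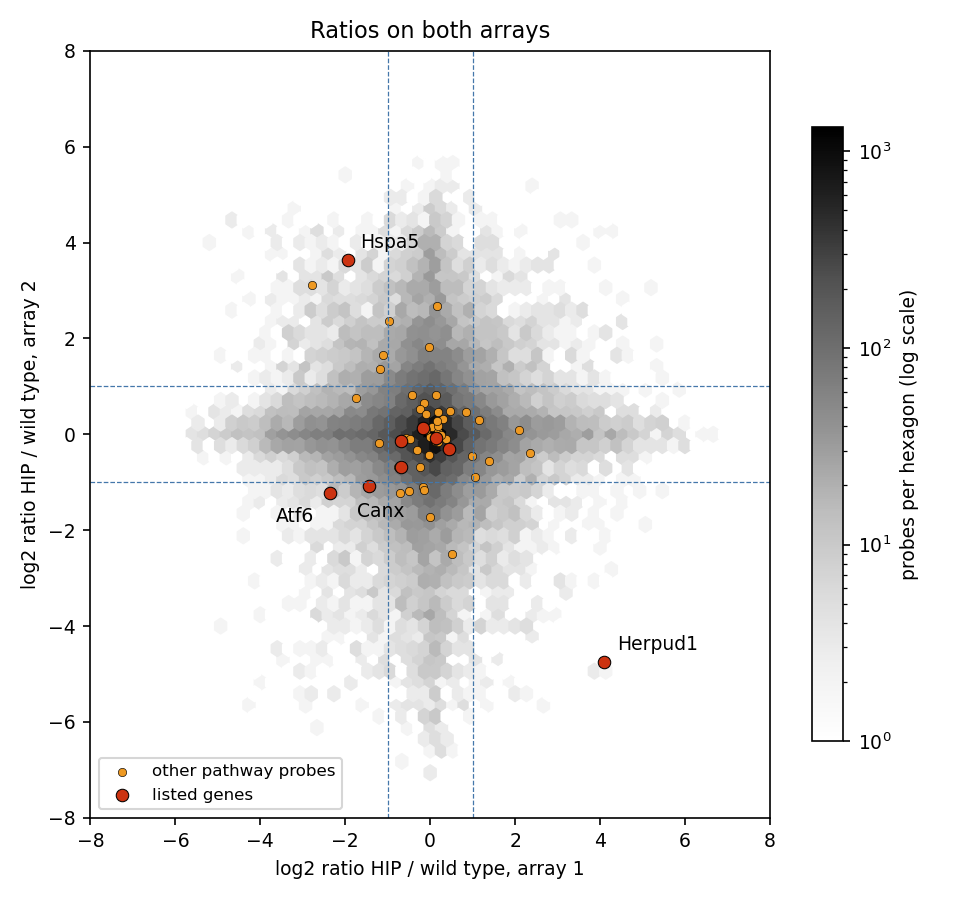
Log2 ratio of HIP over wild type on array 2 against that on array 1, for all 33643 probes tested (grey hexagons, log scale of counts), the other genes of the pathway (orange) and the 9 listed probes (red). Dashed lines mark 2-fold. Atf6 and Canx lie in the lower left corner beyond 2-fold, and Hspa5 and Herpud1 in opposite corners.

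The spread between arrays was much wider than that between spots of 1 array. For the 209 probes printed 10 times, the median SD of the log2 ratio among spots was 0.07 on array 1 and 0.08 on array 2. The median SD between arrays was 0.60 for the same probes. The scanner software's own p-value, which covers the error of 1 array, was under 0.01 for 7 of the 9 listed probes on array 1 and 6 on array 2, beside 60.6% and 58.2% of all probes. On both arrays and in the same direction it was under 0.01 for 3 of them (17.7% of all probes), and in opposite directions for another 3 (18.9%).

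The values were set beside those of other processing. In 12 of 12 settings Atf6, Canx, Ddit3 and the brighter Dnajb9 probe were below the median of all probes on both arrays, and Hspa5 and Herpud1 had opposite signs. Many of these settings changed only the model, the filter or the spots kept and so left most ratios as they were. Relative to the median of all probes, median centring and no normalization give the same values by construction. For Atf6 these were -1.82 and -0.61 in both. The 12 settings, here and in the counts below, are thus not 12 separate checks. Without normalization the median of all probes was itself shifted to 1.06, and 1 listed probe was then lower and 5 were higher in HIP on both arrays. Canx had log2 ratios of -0.58 and -0.07 there, and Atf6 had log2 ratios of -1.03 and 0.58. In the authors' deposited table, 9 listed probes have an entry and 7 equal the scanner's ratio. The authors' deposited table gives Herpud1 log2 ratios of 3.12 and -4.67.

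**Figure D3:**
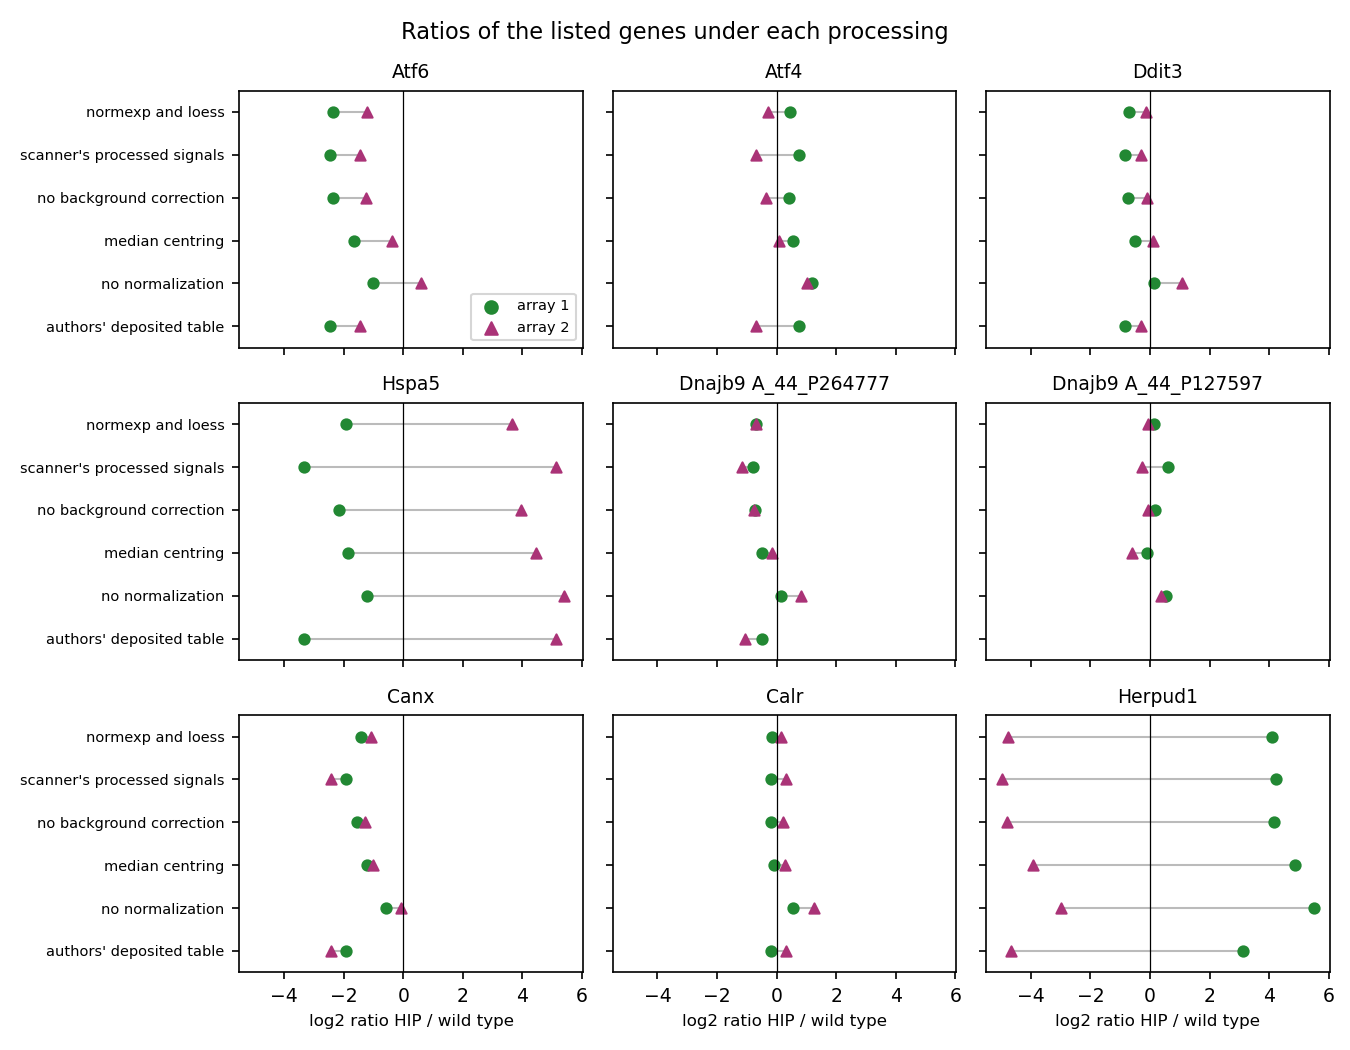
Log2 ratio (x axis) of each tested listed probe on array 1 (circles) and array 2 (triangles) under the settings that change the ratios themselves, named on the y axis. Hspa5 and Herpud1 have opposite signs in each, and Canx is below 0 on both arrays in each, whereas without normalization Atf6 is above 0 on array 2.

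The rest of the pathway was covered by a list of 51 further genes, of which 47 had 59 probes and 39 genes (46 probes) could be tested. By limma, 0 of the 46 probes passed the adjusted threshold in either direction and 0 had an unadjusted p under 0.05. Of the 46, 21 had opposite signs, 12 were higher in HIP on both arrays and 13 were lower. None was at least 2-fold the same way on both arrays, beside 5.01% of all probes. That count was 2 with processed signals, 2 in the authors' deposited table and 11 without normalization. In opposite directions, 3 were at least 2-fold apart. The median of their mean log2 ratios was 0.12. The counts by direction lay near those of all probes, of which 26.9% were higher on both arrays, 22.9% lower and 50.2% opposite. These shares also stand beside the counts by group below.

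Among the sensors and their processing factors, 4 of 6 probes were lower on both arrays, beside 22.9% of all probes, 1 was higher and 1 opposite. For 2 of the 4 a ratio was near 0, as Ern2 had -0.0003 and -0.06 and Wfs1 had -0.03 and -0.44. Eif2ak3, which encodes PERK, had log2 levels of 9.11 and 8.40 in wild type 1 and HIP 1, and 8.78 and 7.55 in wild type 2 and HIP 2, and both HIP extracts were below both wild-type extracts. Its log2 ratios were -0.71 and -1.23, with a mean of -0.97 ± 0.37 (SD, n = 2; limma adjusted p = 0.942). Eif2ak3 was below the median of all probes on both arrays in 12 of 12 processing settings, and below 0 on both in 11, the exception being the one without normalization. Atf6b, the close relative of Atf6, had log2 ratios of 0.17 and 2.68, the opposite sign to Atf6, and the size of its mean came from array 2. It was above the median of all probes on both arrays in 10 of 12 processing settings.

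In the PERK branch 2 of 7 probes were higher on both arrays, 1 was lower and 4 were opposite. Ppp1r15a, which encodes GADD34, the phosphatase subunit that restores translation, had log2 ratios of -1.22 and -0.19. Trib3, a pseudokinase induced through ATF4 and CHOP, had 0.37 and -0.10. Atf3, a stress-induced transcription factor, had log2 ratios of -0.03 and 1.82. Eif2s1, which encodes eIF2alpha itself, had -2.79 and 3.12. Of the probes of Chac1, a known target of this branch, 1 had -1.18 and 1.36 and the other 0.31 and 0.32. Eif2s1 and the first Chac1 probe were 2 of the 3 pathway probes with 2-fold ratios in opposite directions. The third was Sec62, a protein translocation factor, at -1.10 and 1.65. These 3 probes had the signs of Hspa5 on each array, opposite to those of Herpud1.

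Among chaperones and folding enzymes, 5 of 16 probes were higher on both arrays, 3 were lower and 8 were opposite. Hsp90b1, which encodes GRP94, the Hsp90 of the endoplasmic reticulum, had log2 ratios of 2.09 and 0.08 with 1 probe and 0.51 and -2.50 with the other. The probes of this gene disagreed on array 2. The disulphide isomerases Pdia3 (0.18 and 0.46) and Pdia4 (0.85 and 0.47) were higher on both arrays, each by less than 2-fold. Pdia3 was above the median of all probes on both arrays in 10 of 12 settings and Pdia4 in 12 of 12. With processed signals the Pdia4 log2 ratios were 2.61 and 1.31, over 2-fold on both arrays. The wild-type log2 levels of Pdia4 were low, at 6.29 and 6.79, though well above background. Log2 ratios of Pdia6 were 0.11 and -0.14, and those of P4hb were 0.27 and -0.02. Dnajc3, a co-chaperone that inhibits PERK, had -0.14 and 0.66.

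In degradation, 3 of 11 probes were higher on both arrays, 3 were lower and 5 were opposite. Sel1l, the scaffold of the retrotranslocation complex to which HERPUD1 also binds, had log2 ratios of 0.12 and -0.11, far smaller than those of Herpud1. Edem1, a lectin that passes misfolded glycoproteins to degradation, had -0.58 and -0.08 with 1 probe and 0.16 and 0.27 with another. Of 3 probes for stress-linked cell death, 2 were lower on both arrays and 1 was opposite. Casp12, a caspase tied to endoplasmic reticulum stress in rodents, had log2 ratios of -0.01 and -1.72.

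**Figure D4:**
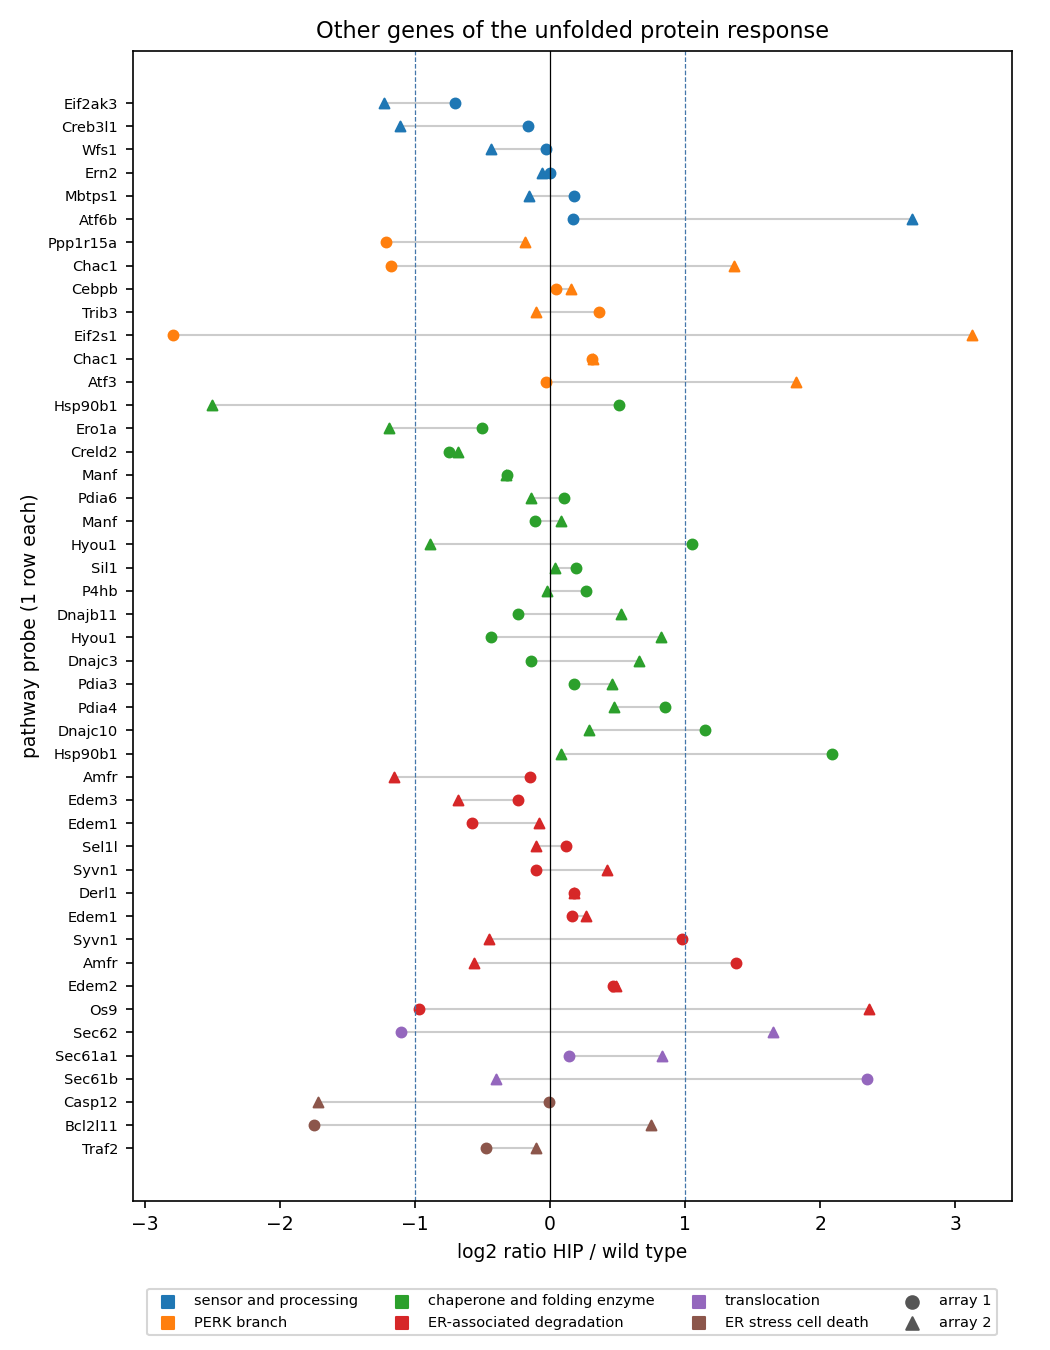
Log2 ratio of HIP over wild type for the 46 tested probes of the other pathway genes, grouped by role, with circles for array 1 and triangles for array 2. Dashed lines mark 2-fold. No probe has both marks beyond the same dashed line, and Eif2s1 spans both.

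Genes with an ERSE or ERSE-II in the promoter were also counted by direction. Over the listed and pathway genes, 9 such genes with 11 probes could be tested. Of the 11 probes, 1 was higher in HIP on both arrays, 2 (Canx and Creld2) were lower on both and 8 were opposite, where 26.9%, 22.9% and 50.2% of all probes did so. With so few probes nothing is read from these counts. On array 1 the Hspa5 ratio was negative and the Herpud1 ratio positive, although their promoters hold the related elements shown above.

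Because the tissue is not labelled, markers of the cell types that a pancreatic sample could hold were read from the same extracts. Of 6 islet probes tested, 3 were lower in HIP on both arrays, 1 was opposite and 2 were higher. Of all probes, 22.9%, 50.2% and 26.9% did so. The insulin genes were bright and lower in HIP on both arrays, with log2 ratios of -1.18 and -1.02 for Ins1 and -1.04 and -0.85 for Ins2, similar in size to those of Canx. Both insulin genes were below the median of all probes on both arrays in 12 of 12 settings, though above 0 on both without normalization. With median centring their ratios were small, at -0.24 and -0.23 for Ins1 and 0.06 and -0.08 for Ins2, while Canx had -1.21 and -1.03. Ppy, a hormone of another islet cell type, had 0.93 and 0.19, higher on both arrays. Iapp, the other probe counted as higher, had 0.51 and 0.10. The Iapp probe was dim, with log2 levels between 6.32 and 6.83. It was not well above background in wild type 2, so its array 2 ratio shows no direction. Glucagon (Gcg) had log2 ratios of 2.84 and -1.35 and so reversed between arrays in the direction of Herpud1. The log2 summed level of the 8 islet probes was 15.18 and 15.49 in wild type and 14.40 and 14.38 in HIP, and 5 to 7 of them were well above background. That of the 11 ductal probes was 12.87 and 12.79 in wild type and 11.76 and 11.65 in HIP, with 8 or 9 well above background. A few bright probes set such sums. In the ductal case these were Krt8 (log2 ratios of -2.64 and -3.69) in both wild-type extracts and Muc1 (-3.26 and -0.45) in wild type 1. The log2 level of Muc1 was 11.46 in wild type 1 and 7.96 in wild type 2. In the HIP extracts the brightest ductal probe was 1 of Sox9, at 10.39 and 10.30. Of 9 ductal probes tested, 5 were lower on both arrays (22.9% of all probes), 2 were higher (1 each of Sox9 and Cftr) and 2 were opposite. Both sums were thus lower in both HIP extracts, as Atf6 and Canx were, and their part in those results was not tested.

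No other marker sum was lower in both HIP extracts than in both wild-type extracts. The 7 acinar probes with a value in every extract were summed. Their log2 summed level was 12.34 and 12.01 in wild type 1 and HIP 1. It was 14.02 and 13.97 in wild type 2 and HIP 2. The acinar sum thus differed between arrays and was lower in HIP on each. Stromal sums were 12.34 and 12.29 in wild type 1 and HIP 1, and 12.82 and 12.75 in wild type 2 and HIP 2. In the same order, endothelial sums were 12.11, 12.14, 11.50 and 11.84, and immune sums 11.56, 12.05, 11.84 and 11.46. Within arrays, stromal sums were lower in HIP on both, endothelial sums higher on both and immune sums opposite. Of the 10 probes for liver, brain and muscle genes, 9 were well above background in every extract, so this mark alone does not show that a tissue expresses a gene. Of these 9, 4 were also lower in HIP on both arrays, 2 were higher and 3 were opposite. Lower ratios were thus not particular to islet and ductal markers. Of the gene spots, 83.5% were well above background in wild type 1, 85.0% in HIP 1, 73.6% in wild type 2 and 84.1% in HIP 2. The part of the lower share in wild type 2 in the ratios of array 2 was not tested.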

How the data were processed

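Per the file headers, the authors measured spot intensities on array design 014879 with version 9.5.1.1 of Agilent Feature Extraction. The deposited intensity columns used were the mean spot signal, the median local background and the processed signal. The deposited log10 ratio and its p-value are, per the file headers, those of the scanner software; the log10 ratio equalled processed Cy5 over Cy3 within 0.0001 for 95.7% and 93.3% of gene spots. The deposited series table, on a log10 scale, equalled the scanner's ratio within 2e-05 for 89.5% of matched entries, and how probes were combined in the others is unknown. PCR amplification can alter transcript proportions, which was not measured.

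From the deposited intensities, log2 ratios were computed in R 4.3.3 with limma 3.58.1: normexp (offset 50), loess with control spots at weight 0, outlier-marked spots left out and replicate spots averaged. Probes well above background in at least 1 dye on both arrays were kept (33643 of 41012, 82%). The two-sided limma test (lmFit, eBayes) compared each ratio with 0, on 1 residual and 1.70 prior degrees of freedom, with Benjamini-Hochberg adjustment at 0.05. An exact sign-flip test of 2 ratios cannot go below p = 0.5. Levels were scaled between arrays by Aquantile, which leaves ratios as they are. The script was tested on simulated data with large changes. Recovery was required only at a spread far below that of these arrays, so the test does not show the power here. The number of arrays, 2, limits the precision. No gene spot was saturated.

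Gene names came from the array, with older symbols and RefSeq (GRCr8) synonyms. Promoters were RefSeq windows, and Atf6 and Ern1 had no entry. No source used here names the build of the probe positions on the array. Named genes were all listed members, 12 fixed pathway genes, and the 2 highest and 2 lowest pathway probes with 1 sign on both arrays; Eif2s1, Chac1, Sec62, Creld2, Ern2 and Wfs1 were added after their values were seen. The members and lists were chosen with earlier results of these data known.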

Additional observations from a re-analysis of the deposited data

How the results depend on the processing

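With limma, 0 listed and 0 pathway probes passed the adjusted threshold under any of the 11 alternatives, with 924 to 5586 of all probes at an unadjusted p under 0.05 and a smallest adjusted p between 0.29 and 1. The count of listed probes 2-fold the same way was 2 in the values reported. It was 1 with median centring, where Canx stayed and Atf6 had -0.37 on array 2, and 1 without normalization, where that probe was Atf4, higher in HIP (1.19 and 1.02), and neither Atf6 nor Canx was 2-fold lower on both arrays. The median of the listed probes was 0.60 without normalization, -0.011 with no filter on dim probes and -0.66 in the authors' deposited table, and leaving out 1 array gave -0.69 to -0.31. The mean log2 ratio changed sign for some probes. Calr was 0.065 with processed signals and with the authors' deposited table, 0.10 with median centring and 0.89 without normalization. Herpud1 was 0.47 with median centring and 1.26 without normalization, and the dimmer Dnajb9 probe was -0.35 with median centring. Without normalization Ddit3 was 0.60 and the brighter Dnajb9 probe 0.47. Without replicate 1, and then without replicate 2, Calr was 0.14 and -0.16, Atf4 -0.31 and 0.43, the dimmer Dnajb9 probe -0.069 and 0.13, Hspa5 3.64 and -1.94, and Herpud1 -4.75 and 4.10. Of the pathway probes, 2 were 2-fold the same way with processed signals, 11 without normalization and 2 in the authors' deposited table, and their median was 0.21 with processed signals, 0.36 with median centring and 1.15 without normalization. The cause of these changes was not tested beyond the shift of the median of all probes, 1.06 without normalization and 0.27 with median centring. Leaving out an array leaves no residual degrees of freedom, so it gave values with no test and no counts. Each array is itself a pair of extracts, so the ratios form 1 group and their test against 0 was already paired by array. An alternative that took the channels as separate samples dropped this pairing. Wild type 2 had the lowest median signal over background, 2.94 against 5.10 to 5.26.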
